A study of Ovis aries with 2 samples.

Results

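PDGFRA, LHFPL3, GPR17, MEGF11, STK32A and CHST11 are 6 genes associated with oligodendrocyte precursors, the glial progenitors of the brain. They were taken by symbol from the 13765 features listed for single-nucleus RNA sequencing of sheep cerebral cortex, and all 6 were found, each listed once. The series compared how tissue handling affects the mix of neural cells. Both libraries came from cortex of a wildtype adult female Rambouillet sheep with no in vivo treatment, are labelled with the same batch and are described as coming from 1 animal aged 18 to 36 months. In the unprocessed library nuclei were isolated straight from the dissected cortex, and in the processed library the tissue first went through removal of debris and red blood cells. The treatment label of the processed library says that no such removal was done, against its title and the series description, so each direction between the libraries rests on the titles.

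Oligodendrocyte precursors persist in the adult brain, where they divide, migrate and give rise to the oligodendrocytes that wrap axons in myelin. Platelet-derived growth factor, acting through its receptor PDGFRA, keeps precursors dividing, and PDGFRA is lost as they differentiate. GPR17, a G protein-coupled receptor, is known as a marker of a transient committed stage between the dividing precursor and the mature oligodendrocyte, in which it is switched off. LHFPL3 is a membrane protein of the LHFPL family, MEGF11 a membrane protein with EGF-like repeats, STK32A a serine/threonine kinase, and CHST11 a sulfotransferase that adds sulphate to chondroitin, the sugar chain carried by proteoglycans of the precursor surface.

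The unprocessed library held 2125 barcodes with a median of 2524 unique molecular identifiers (UMIs, counts of single captured RNA molecules) over the listed genes. The processed library held 905 barcodes, of which the 494 that had 100 or more detected genes are treated as nuclei, with a median of 667.5 UMIs. The libraries shared 0 barcodes. There was 1 library per condition, so no test was possible between them. Every interval given is a 95% interval that covers counting error only, not the spread between animals or preparations. Intervals of summed UMIs and of their ratios also leave out the spread between nuclei, so they can be too narrow. Levels are summed UMIs per 1000000 UMIs of the listed genes (CPM), and they are compared between groups of nuclei for 1 gene, never between genes.

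The nuclei were clustered with the 6 genes left out, and clusters were named from marker lists that hold none of them. A single cluster of 108 unprocessed nuclei, or 5.08% of 2125, was precursor-like, and 0 of 494 processed nuclei fell in it. All 8 listed precursor markers were detected there at a higher CPM than in the other 2017 unprocessed nuclei. VCAN, the proteoglycan versican, stood at 1548 CPM against 49.6 CPM. The lineage transcription factor SOX10 stood at 138 CPM against 8.71 CPM, and OLIG1 at 159 CPM against 12.3 CPM, while OLIG2 gave 4 UMIs in each set. Markers of other cells were not absent: the 12 of 16 neuronal markers detected summed to 3686 CPM in precursor-like nuclei against 26441 CPM elsewhere, and 6 of 6 astrocyte markers summed to 1053 CPM against 919 CPM. The 8 of 8 microglial markers summed to 555 CPM against 301 CPM, and 3 of 3 oligodendrocyte markers to 795 CPM against 244 CPM. PDGFRA is also known from fibroblasts, and 2 of 5 fibroblast markers were detected in the precursor-like nuclei, with LUM, COL1A2 and COL3A1 at 0 UMIs. The fibroblast list summed to 38.9 CPM against 24.6 CPM elsewhere. The part of RNA from other cells in the values below was not tested.

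All 6 genes had their highest level in the precursor-like cluster among the 13 unprocessed clusters with at least 20 nuclei, and for none did the counting interval overlap that of the next cluster. All 6 were more than 2-fold higher there than in the other unprocessed nuclei, where 16.0% of 7369 measured genes (at least 20 UMIs) were that much higher and 16.8% that much lower. The median log2 ratio was 5.16 over the 6 genes and 0.08 over all measured genes. The 6 genes were chosen with earlier results of these data known. PDGFRA, STK32A, GPR17 and LHFPL3 are among the 10 leading genes of this same cluster. Their high levels and ranks there are thus a description and not independent support. The genes fell into a steep set, PDGFRA, GPR17 and STK32A, whose UMIs came mainly from these 108 nuclei, and a graded set. The graded set was LHFPL3, MEGF11 and CHST11, whose UMIs came mainly from other nuclei. MEGF11 and CHST11 each had a second site in another cell class. The second level of LHFPL3 was less set apart, at 1319 CPM against 989 CPM in the next cluster.

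**Figure D1:**
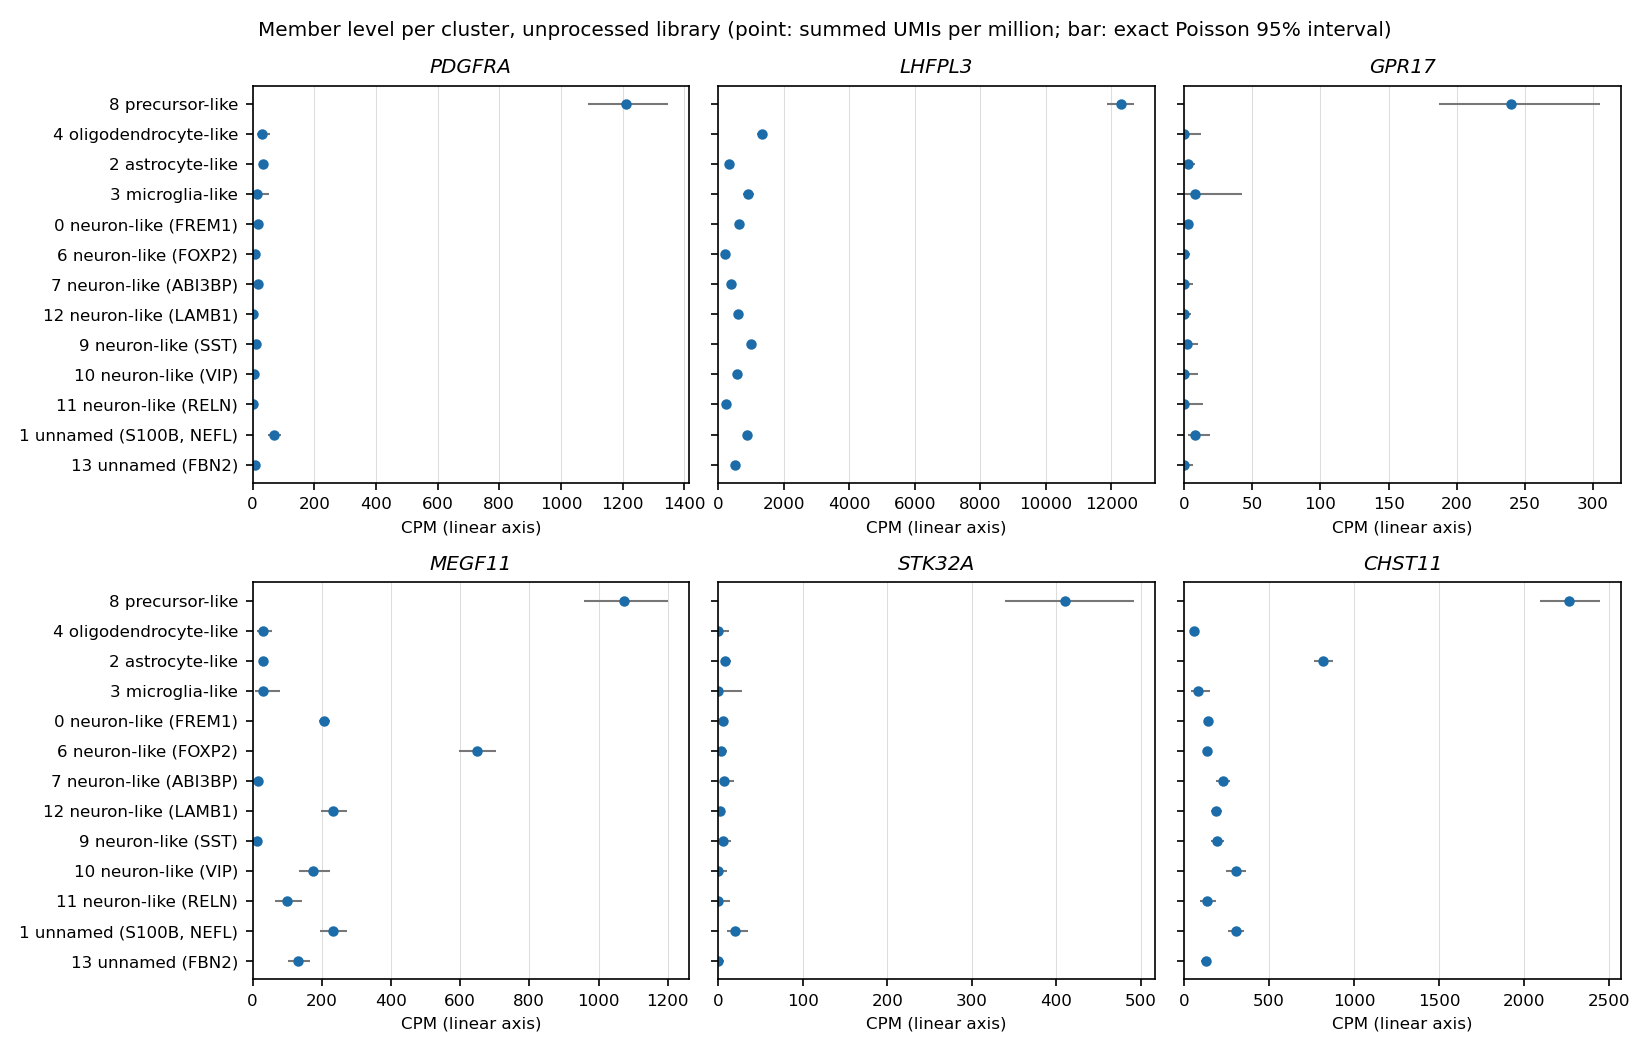
Level of each gene (CPM, linear axis starting at 0, a separate scale for each gene) in the 13 unprocessed clusters with at least 20 nuclei, with exact Poisson 95% intervals. In every panel the precursor-like cluster is the highest point. MEGF11 has a second raised point in neuron-like cluster 6 (649 CPM) and CHST11 in the astrocyte-like cluster (818 CPM). The next LHFPL3 point, less set apart, is the oligodendrocyte-like cluster (1319 CPM).

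PDGFRA, the growth factor receptor, gave 343 UMIs in the precursor-like nuclei, a level of 1212 CPM (1087 to 1348), and 185 UMIs in all other unprocessed nuclei, a level of 19.9 CPM. The ratio was 60.9-fold (50.8 to 73.2), the rank 4 of 7369 genes. The 108 nuclei thus held 65.0% (60.7 to 69.0) of all PDGFRA UMIs in the library. In single nuclei the count ran from 0 to 14 with a median of 3, and 95 of 108 had at least 1 UMI. The next level was that of unnamed cluster 1, 69.3 CPM (49.9 to 93.6), a cluster of 361 shallow nuclei led by a mixture of astrocyte, mural and neuronal genes. Astrocyte-like nuclei at 34.1 CPM, oligodendrocyte-like nuclei at 29.9 CPM and neuron-like cluster 0 at 19.2 CPM followed, and from there down neighbouring clusters in the order had overlapping intervals.

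STK32A, the kinase, gave 116 UMIs in the precursor-like nuclei, or 410 CPM (339 to 492), and 50 UMIs elsewhere, or 5.38 CPM. The ratio of 76.2-fold (54.3 to 108) ranked 2 of 7369. It was detected in 61 of 108 precursor-like nuclei, with at most 7 UMIs in one. In 5 of the other 12 clusters, the oligodendrocyte-like cluster among them, STK32A had 0 UMIs, and the second level was 19.8 CPM (10.2 to 34.6) in cluster 1.

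GPR17, the receptor of the committed stage, gave 68 UMIs in the precursor-like nuclei, or 240 CPM (187 to 305), and 21 UMIs in the other 2017 nuclei, or 2.26 CPM. Its ratio of 106-fold (64.4 to 183) ranked 1 of 7369, and 76.4% (66.2 to 84.8) of its UMIs lay in the 108 nuclei. It was also the most thinly covered of the 6, with 41 of 108 precursor-like nuclei positive. Outside them GPR17 appeared in 8 nuclei of neuron-like cluster 0, whose median depth was 12230 UMIs, in 5 nuclei of cluster 1, in 3 astrocyte-like nuclei, and in 1 nucleus each of the microglia-like, endothelial-like and neuron-like cluster 9. No oligodendrocyte-like nucleus had a GPR17 UMI, 0 of 181, which allows a share of nuclei with a UMI of up to 2.02%.

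LHFPL3 gave 3477 UMIs in the precursor-like nuclei, or 12288 CPM (11883 to 12704), and 5461 UMIs elsewhere, or 587 CPM, a ratio of 20.9-fold (log2 4.33 to 4.45). All 108 nuclei carried it, with 2 to 116 UMIs each and a median of 27. The second level was in oligodendrocyte-like nuclei, at 1319 CPM (1193 to 1456). Against the remaining nuclei without the precursor-like ones this was 2.35-fold higher, in a comparison where 18.7% of genes were at least 2-fold higher. The SST-expressing neuron-like cluster 9 followed at 989 CPM (909 to 1075), an interval that overlapped that of microglia-like cluster 3 at 906 CPM (751 to 1084). The lowest level was 199 CPM (170 to 231) in neuron-like cluster 6. LHFPL3 was thus detected in each of the 13 clusters with at least 20 nuclei, and only 38.9% of its UMIs came from the precursor-like nuclei. In the processed library, barcodes with under 100 detected genes stood at 1242 CPM, within the interval of the unprocessed oligodendrocyte-like level.

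CHST11, the chondroitin sulfotransferase, gave 641 UMIs in the precursor-like nuclei, or 2265 CPM (2093 to 2448), and 2249 UMIs elsewhere, or 242 CPM, a ratio of 9.37-fold (8.57 to 10.2). Its second site was the astrocyte-like cluster, with 863 UMIs and 818 CPM (765 to 875). This was 4.87-fold above the remaining nuclei without the precursor-like ones, where 22.5% of genes were at least 2-fold higher. The lowest level, 56.5 CPM (32.9 to 90.4), was that of the oligodendrocyte-like nuclei. CHST11 and LHFPL3 therefore had opposite orders in the other glia, with CHST11 high in astrocyte-like and low in oligodendrocyte-like nuclei, and LHFPL3 the reverse.

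MEGF11 gave 304 UMIs in the precursor-like nuclei, or 1074 CPM (957 to 1202), and 1775 UMIs elsewhere, or 191 CPM, a ratio of 5.63-fold (4.97 to 6.36). Its second site was neuronal. Neuron-like cluster 6, led by SEMA3E, SYT6 and FOXP2, genes known from deep-layer cortical neurons, had 552 UMIs and 649 CPM (596 to 705). The other neuron-like nuclei had 167 CPM, a ratio of 3.90-fold, and in that comparison 4.53% of genes were at least 2-fold higher. Neuron-like clusters differed widely: SST-expressing cluster 9 stood at 14.1 CPM (6.09 to 27.8) and cluster 7 at 16.3 CPM (7.47 to 31.0). The oligodendrocyte-like nuclei stood at 29.9 CPM, the astrocyte-like at 30.3 CPM. The 108 precursor-like nuclei held 14.6% of MEGF11 UMIs, the lowest share of the 6 genes.

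Depth differs between classes, with a median of 5055 UMIs in neuron-like nuclei against 1991.5 in precursor-like ones, so shares of nuclei with a UMI were taken after thinning each nucleus to 900 UMIs. The thinning was a single random draw, and the intervals leave out the variation of the draw. PDGFRA was then found in 68.5% (58.9 to 77.1) of precursor-like nuclei, 3.37% of astrocyte-like, 2.33% of microglia-like, 1.22% of neuron-like and 1.10% of oligodendrocyte-like nuclei. GPR17 was found in 17.6% (10.9 to 26.1) of precursor-like nuclei and in 0 nuclei of those other 4 named classes, which for 982 neuron-like nuclei allows a share of up to 0.375%. STK32A was found in 27.8% of precursor-like nuclei and in at most 0.562% of any of the other 4. The 406 unnamed nuclei, mostly of cluster 1, lay higher for 2 of these genes, with PDGFRA in 4.93% (3.03 to 7.51) and GPR17 in 5 nuclei or 1.23% (0.401 to 2.85), while STK32A was in 0.246%. The only other GPR17 nucleus left at this depth was 1 of 6 endothelial-like ones. LHFPL3 was found in 100% of precursor-like, 60.2% of oligodendrocyte-like, 30.2% of microglia-like, 26.2% of neuron-like and 13.5% of astrocyte-like nuclei. CHST11 was found in 80.6% of precursor-like and 44.9% of astrocyte-like nuclei, and MEGF11 in 58.3% of precursor-like and 13.8% of neuron-like nuclei, with 30.5% in neuron-like cluster 6. Before thinning, the precursor-like shares were 88.0% for PDGFRA, 38.0% for GPR17, 56.5% for STK32A, 84.3% for MEGF11 and 91.7% for CHST11. A separate draw to 200 UMIs, unlike that to 900, left GPR17 in 1 astrocyte-like nucleus.

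**Figure D2:**
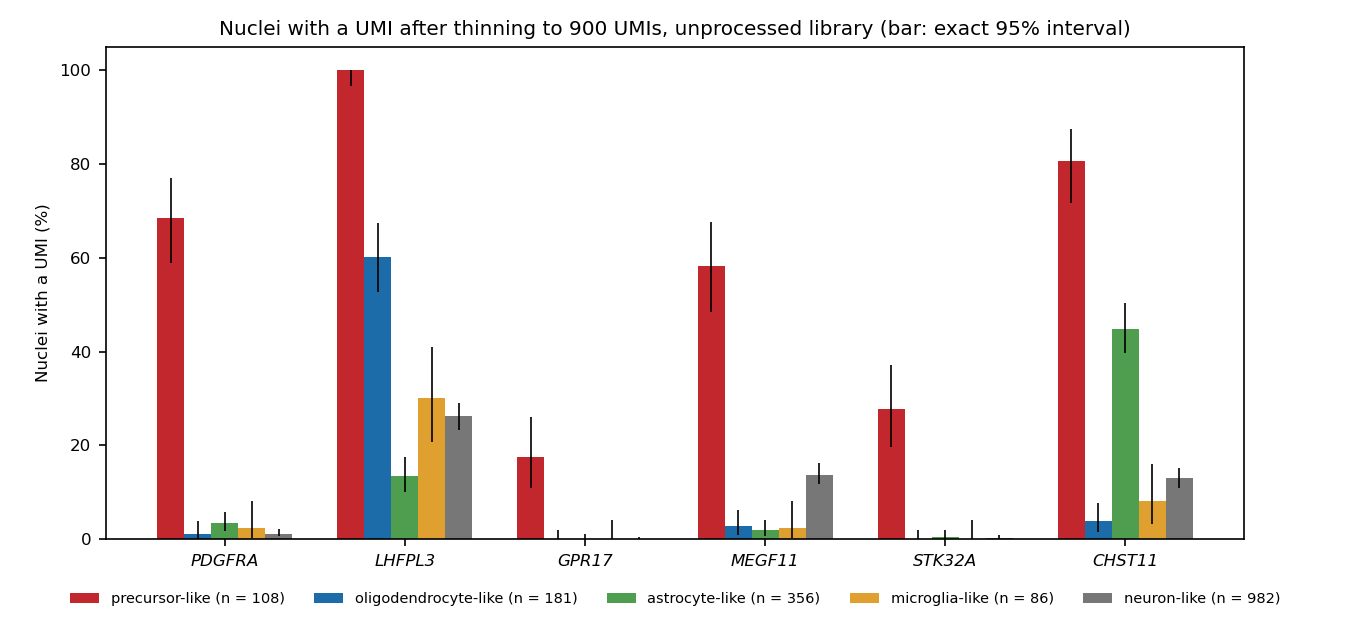
Share of unprocessed nuclei with at least 1 UMI of each gene (percent, bars from 0) after thinning every nucleus to 900 UMIs in a single random draw, by class, with exact Clopper-Pearson 95% intervals. The precursor-like bars are the tallest for all 6 genes; oligodendrocyte-like nuclei carry LHFPL3 in 60.2% and astrocyte-like nuclei CHST11 in 44.9%, while GPR17 is at 0 in the other 4 classes drawn; unnamed nuclei are not drawn.

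The genes were seen together in the same nuclei. At 900 UMIs a precursor-like nucleus carried a median of 3.5 of the 6 genes, and 91 of 108 (84.3%) carried at least 3. The same was true of 1.40% of astrocyte-like, 0.407% of neuron-like, 0.552% of oligodendrocyte-like, 2.33% of microglia-like and 3.45% of unnamed nuclei. Without thinning, 19 precursor-like nuclei carried all 6, and the share with at least 3 was 97.2%, against 20.3% of the deeper neuron-like nuclei. Over all 2125 unprocessed nuclei at 900 UMIs, 69.4% of STK32A nuclei also had PDGFRA, against 4.69% of nuclei without STK32A, and 10 of 25 GPR17 nuclei had PDGFRA, against 5.38% of those without.

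Within the 108 precursor-like nuclei the pairing was looser. PDGFRA was found in 24 of 30 STK32A nuclei (80.0%) and in 64.1% of those without STK32A. MEGF11 and CHST11 shared 54 nuclei, with CHST11 in 85.7% of MEGF11 nuclei and in 73.3% of the others. CHST11 was in 80.0% of STK32A nuclei and 80.8% of the others. For GPR17 the direction depended on the setting. PDGFRA was found in 10 of 19 GPR17 nuclei (52.6%) and in 71.9% of those without GPR17. With all UMIs kept, PDGFRA was in 34 of 41 GPR17 nuclei (82.9%) and in 91.0% of the others. With at least 2 UMIs asked of each gene it turned, to 81.2% of 16 GPR17 nuclei against 75.0% of the others. With all UMIs kept, most nuclei with the committed-stage receptor also carried the growth factor receptor, while at 500 UMIs most did not. These shares rest on as few as 16 nuclei of 1 library, and all 15 pairs were looked at.

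The 41 GPR17-positive precursor-like nuclei (median 2384 UMIs) were next set against the 67 without a GPR17 UMI (median 1928 UMIs). In this comparison 2.49% of 2493 measured genes were at least 2-fold higher and 3.29% at least 2-fold lower, and none of the 5 other genes was among them. PDGFRA stood at 1251 CPM in positive and 1185 CPM in negative nuclei, a log2 ratio of 0.08 (-0.24 to 0.39). LHFPL3 differed by -0.04 (-0.14 to 0.06), CHST11 by 0.06 (-0.17 to 0.29) and STK32A by -0.18 (-0.75 to 0.38) on the same log2 scale. MEGF11 was 1276 CPM against 929 CPM, a log2 ratio of 0.46 (0.12 to 0.79). With GPR17-positive taken as at least 2 UMIs, 16 nuclei were set against the other 92, which include the 25 with 1 GPR17 UMI. The threshold and the reference set thus both changed. The direction of MEGF11 did not hold there, at -0.23 (-0.74 to 0.22), with LHFPL3 at -0.44 (-0.58 to -0.29) and CHST11 at -0.61 (-0.99 to -0.27). LHFPL3 ran from 3 to 87 UMIs over the 9 nuclei with 2 GPR17 UMIs, a spread between nuclei that these intervals leave out.

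Genes known from committed precursors were mixed in the same comparison. FYN, a kinase of the myelination programme that also stands in the PDGF signalling list, was 1023 CPM in positive against 583 CPM in negative nuclei, a log2 ratio of 0.81 (0.41 to 1.21). UGT8, which makes the myelin lipid galactosylceramide, was 854 CPM against 565 CPM, 0.59 (0.17 to 1.02) on the log2 scale. CNKSR3 had a log2 ratio of 0.71 (0.01 to 1.41), TNS3 0.35 (-0.01 to 0.70) and ITPR2 -0.30 (-0.57 to -0.03). None of the 4 measured genes of that list passed 2-fold, and their median log2 ratio was 0.53 against 0.00 for all genes. With GPR17-positive taken as at least 2 UMIs, against the other 92 nuclei, FYN passed 2-fold at 1.10 (0.65 to 1.52). TNS3 was 0.80 (0.38 to 1.19), CNKSR3 0.81 (-0.05 to 1.56) and UGT8 0.56 (0.03 to 1.04). These 16 nuclei include the nucleus with the most GPR17 UMIs, described below, and this setting was not run without it. The 3 oligodendrocyte markers summed to 913 CPM in positive and 711 CPM in negative nuclei, and only UGT8 was higher: ERMN gave 4 against 12 UMIs and CLDN11 3 against 12.

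A single nucleus carried much of the FYN and TNS3 difference. The nucleus with the most GPR17 UMIs, 6 among its 2887, had 27 FYN UMIs (9352 CPM) and 22 TNS3 UMIs (7620 CPM), above each of the other 107 precursor-like nuclei for both genes, whose medians with it included were 551 CPM and 741 CPM. It had 50 LHFPL3 UMIs and 6 UGT8 UMIs, and 0 UMIs of PDGFRA, MEGF11, STK32A, CHST11 and ITPR2. The nucleus with the next most GPR17 UMIs, 4 among 1647, also had 0 UMIs of PDGFRA and CHST11, with 18 of LHFPL3 and 4 of MEGF11. All 5 nuclei with 3 GPR17 UMIs, in contrast, had 2 to 8 PDGFRA UMIs. By GPR17 level the order differs: a nucleus of 977 UMIs with 3 GPR17 UMIs stood highest at 3071 CPM and had 2 PDGFRA UMIs, followed by the nuclei with 4 (2429 CPM) and 6 (2078 CPM). Without the first nucleus, chosen after its values were seen, all other GPR17-positive nuclei were again set against the negative ones. The log2 ratio was then 0.48 (0.06 to 0.91) for FYN, 0.12 (-0.26 to 0.49) for TNS3 and 0.54 (0.11 to 0.97) for UGT8.

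**Figure D3:**
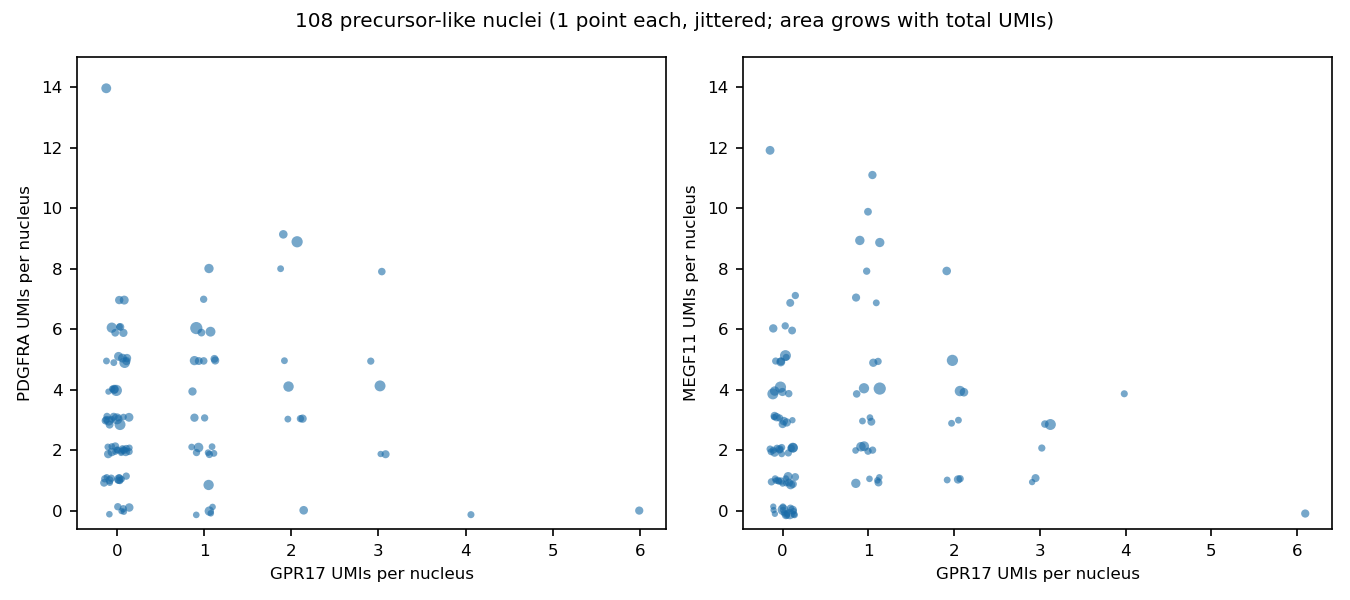
UMIs of PDGFRA (left) and MEGF11 (right) against UMIs of GPR17 in each of the 108 precursor-like nuclei of the unprocessed library; points are jittered and their area grows with the nucleus's total UMIs. The 67 nuclei at 0 GPR17 UMIs run from 0 to 14 PDGFRA UMIs and the 25 nuclei at 1 from 0 to 8, and the nuclei with 4 and 6 GPR17 UMIs have 0 PDGFRA UMIs.

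Outside the precursor-like class, 40 nuclei had 2 or more PDGFRA UMIs: 18 neuron-like, 9 astrocyte-like, 2 oligodendrocyte-like and 11 unnamed. The 18 neuron-like nuclei had a median of 10469.5 UMIs against 4953 for the other neuron-like nuclei. They carried LHFPL3 at 2048 CPM against 514 CPM, a ratio of 3.98-fold (3.61 to 4.39), and STK32A at 69.3 CPM against 2.18 CPM, a ratio of 31.8-fold (14.5 to 70.3). They also held 6 of the 11 GPR17 UMIs found in neuron-like nuclei, and their precursor markers summed to 1784 CPM against 487 CPM. In the 9 astrocyte-like nuclei, of median 4782 UMIs against 2583, LHFPL3 stood at 3071 CPM against 215 CPM, 14.3-fold (11.5 to 17.8). CHST11, which astrocyte-like nuclei carry anyway, was 1.29-fold (0.943 to 1.74) there. The doublet caller marked 0 of the 40, and whether they hold RNA of more than 1 cell was not tested.

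Pathway genes around the members were described from lists, each by its ratio of precursor-like over other unprocessed nuclei. Over all measured genes 16.0% were at least 2-fold higher and 16.8% lower, with a median log2 ratio of 0.08. Of 9 measured genes of PDGF signalling, 4 were at least 2-fold higher, 0 lower, with a median log2 ratio of 0.64. The higher ones were the adaptor SHC4 at a log2 ratio of 2.87 (2.44 to 3.26), the integrin subunit ITGAV at 2.74 (2.31 to 3.13), and the feedback inhibitors of growth factor signalling SPRY4 at 3.27 (2.17 to 4.18, on 12 UMIs) and DUSP6 at 1.12 (0.57 to 1.58). The other PDGF receptor, PDGFRB, known from mural cells, was -0.21 (-1.99 to 0.90), and the adaptor SHC3, known from neurons, -0.32 (-0.58 to -0.09). Among the precursor regulators SOX10 was at a log2 ratio of 3.99 (3.39 to 4.55) and OLIG1 at 3.71 (3.17 to 4.21). SHC4, SOX10 and OLIG1 are also among the markers that named the class. ZEB2 stood at 0.52, SOX5 at 0.12 (-0.02 to 0.27) and ID2, an inhibitor of differentiation factors, at -0.98 (-2.28 to -0.07).

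Chondroitin sulphate genes give the setting of CHST11. Of 9 measured enzymes and core proteins 4 were at least 2-fold higher and 1 lower, at a median log2 ratio of 0.14 against 0.08 for all genes, of which 16.0% were higher and 16.8% lower. The core proteins VCAN, BCAN and PTPRZ1 had log2 ratios of 4.96, 3.71 and 2.70, and all 3 are also markers that named the class. The sulfotransferase UST, which is not a marker, stood at 3.35 (3.20 to 3.49), close to the 3.23 of CHST11. The chain-building enzyme CHSY3 was lower, at -1.35 (-1.71 to -1.04), and CHPF2, also a chain-building factor, was -0.39 (-1.21 to 0.26).

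Of 6 measured genes of the committed stage 3 were at least 2-fold higher, where 16.0% of all genes were: TNS3 at a log2 ratio of 3.67, ITPR2 at 2.16 and CNKSR3 at 1.98. FYN was 0.64 (0.43 to 0.83), GPR37 was 0.65 (-0.22 to 1.32), and BMP4 had 0 UMIs in precursor-like nuclei against 91 elsewhere, too few for a fold. The list's median was 1.31. The myelin genes UGT8, ERMN and CLDN11 were all at least 2-fold higher, at 1.78, 1.38 and 1.37, and are the 3 listed markers of oligodendrocytes; ERMN and CLDN11 rest on 16 and 15 UMIs. Of 12 relatives of the 6 genes, 3 were at least 2-fold higher at a median of 0.38, where 16.0% of all genes were, and 1 of the 3 had an interval that spans 0. LHFPL2, of the LHFPL family, stood at 1.61 (1.22 to 1.96), and MEGF10, a relative of MEGF11, at 1.31 (0.85 to 1.72). KDR was 1.83 on 4 UMIs (-0.26 to 3.15) and P2RY14 0.92 on 2 UMIs (-2.48 to 2.55), while STK32B, the relative of STK32A, had 1 UMI and the purine receptor P2RY1 had 0. The cell cycle genes MCM6 and CCND2 were -0.12 and -0.35, the latter with an interval of -1.32 to 0.38.

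Over the 13 clusters and 5598 genes, the genes most like PDGFRA by Pearson correlation of log2 CPM were STK32A (r = 0.949), the intermediate filament gene NES (r = 0.895), VCAN (r = 0.885), POMT2 (r = 0.875) and SEPTIN8 (r = 0.874). Those most like GPR17 were STK32A (r = 0.959), PDGFRA (r = 0.937), LHFPL3 (r = 0.871), POMT2 (r = 0.863) and LOC132659178 (r = 0.862). The clusters share a library, and a single high cluster sets much of each value. Without the precursor-like cluster r between PDGFRA and STK32A went from 0.95 to 0.72, and r between PDGFRA and MEGF11 from 0.41 to -0.21. By rank correlation none of the 5 genes named for either was among the 5 most similar.

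In the RefSeq gene table, of an assembly that may not be the one the authors counted on, other genes overlap the span of 5 of the 6, all but PDGFRA. The protein-coding ones listed in the files did not share the precursor pattern on the log2 scale where they were measured: LIMS2, which overlaps GPR17, was -0.52 on 2 precursor-like UMIs, LOC114114509, which overlaps LHFPL3, was -0.14, and RAB11A, which overlaps MEGF11, was 0.50. How reads in overlaps were assigned is not given in the sources used here.

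In the processed library the 6 genes were sparse. PDGFRA gave 7 UMIs there, or 9.15 CPM, against 528 UMIs and 55.1 CPM in the unprocessed library, a log2 ratio of -2.49 (-3.91 to -1.54). GPR17 gave 1 UMI against 89, a log2 ratio of -2.25 (-8.15 to -0.31), and MEGF11 stood at 24.8 CPM against 217 CPM, -3.09 (-3.86 to -2.48). CHST11 stood at 110 CPM against 302 CPM, -1.45 (-1.79 to -1.15). LHFPL3 at 690 CPM against 933 CPM differed less, by -0.43 (-0.56 to -0.31), and STK32A at 13.1 CPM against 17.3 CPM had an interval that spans 0 (-1.49 to 0.51). Thus 4 of 6 were at least 2-fold lower, where 24.7% of 7615 measured genes were, 30.4% being at least 2-fold higher, and their median log2 ratio was -1.85 against 0.33 for all genes. Fewer nuclei of the classes that carry these genes and less of their RNA per nucleus cannot be told apart from these sums. The class makeup moved with them: 82.4% of processed nuclei were microglia-like, against 4.05% of unprocessed ones. Neuron-like nuclei, which held 1518 of the 2079 unprocessed MEGF11 UMIs, were 982 of 2125 unprocessed and 0 of 494 processed nuclei. Astrocyte-like nuclei, which held 863 of the 2890 unprocessed CHST11 UMIs, were 356 and 2, and precursor-like nuclei 108 and 0.

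All 7 processed PDGFRA UMIs came from 1 barcode. It fell in microglia-like cluster 3, had 11078 UMIs, and carried 46 UMIs of precursor markers, BCAN, VCAN and PTPRZ1 among them, beside 67 of microglial markers. It also held 48 LHFPL3, 7 MEGF11, 6 STK32A and 24 CHST11 UMIs and 0 of GPR17. These were 60.0% of the library's STK32A UMIs and 36.8% of its MEGF11 UMIs. Without this barcode, an alternative chosen after the data were seen, PDGFRA had 0 UMIs. It was 13.9-fold lower with 0 read as 3 counts in the library, and the interval of the log2 ratio reaches up to -3.49. STK32A then had a log2 ratio of -1.54 (-3.60 to -0.32). The only other processed nuclei with at least 3 of the 6 genes were 2 deep microglia-like ones of 8134 and 13493 UMIs. When nuclei were instead classed by their marker UMIs, 4 processed nuclei came out as precursors, and they held 12 LHFPL3 and 6 CHST11 UMIs and 0 of the other 4 genes.

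**Figure D4:**
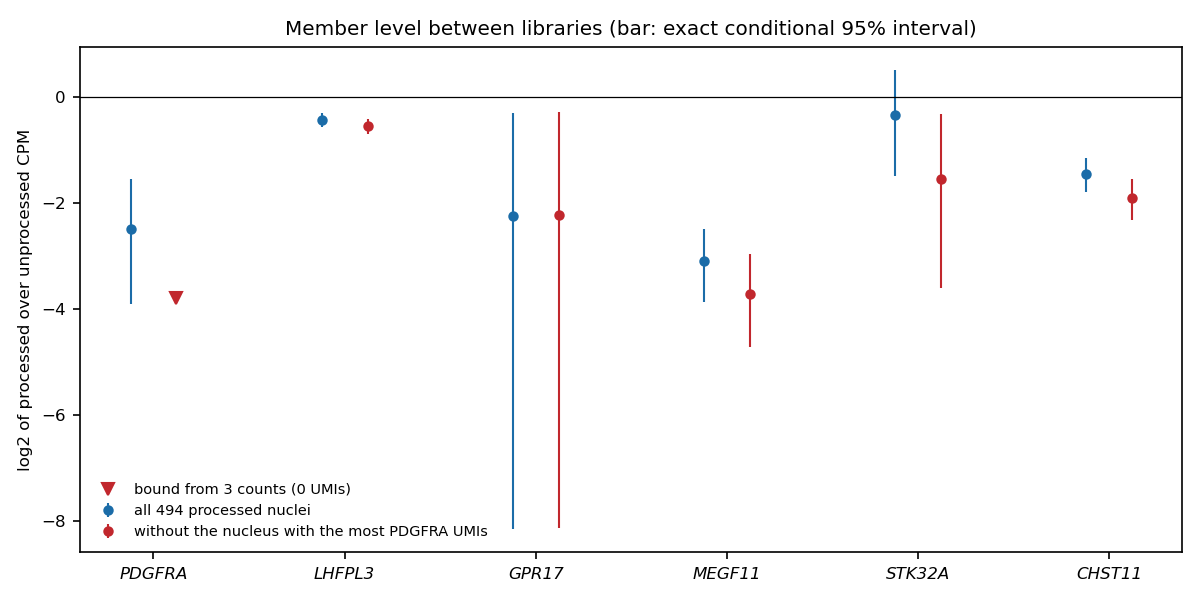
Log2 ratio of processed over unprocessed CPM for each gene, with exact conditional 95% intervals, over all 494 processed nuclei (blue) and without the barcode that held all 7 PDGFRA UMIs (red); the triangle is a bound from 3 counts. All 6 points are below 0 in both sets, and STK32A moves from -0.34 to -1.54.

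At equal depth, thinned to 200 UMIs with 89 shallower processed nuclei left out, PDGFRA was found in 2.12% (1.55 to 2.82) of unprocessed nuclei and in 0 of 405 processed ones, which allows a share of up to 0.907%. CHST11 was found in 6.16% against 0.741%, MEGF11 in 3.62% against 0.247%, and STK32A in 0.565% against 0.247%. GPR17, in 0.141% against 0 of 405, was too rare at this depth to show a difference. LHFPL3 was found in 14.1% (12.7 to 15.7) against 11.1% (8.22 to 14.6). Without thinning the shares were 57.3% against 29.8% for LHFPL3, and 9.79% against 0.202% for PDGFRA.

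LHFPL3 could be compared within a class present in both libraries. The 56 processed oligodendrocyte-like nuclei had 170 UMIs, or 1226 CPM (1048 to 1424), and the 181 unprocessed ones 1319 CPM, a log2 ratio of -0.10 (-0.37 to 0.16). GPR17 and PDGFRA had 0 UMIs in the 56. In microglia-like nuclei LHFPL3 was 571 CPM in the processed and 897 CPM in the unprocessed library, a log2 ratio of -0.66 (-0.96 to -0.34). This class was not the same mix in both libraries. Of 86 unprocessed microglia-like nuclei 85 were of cluster 3, while 227 of 407 processed ones were of shallow cluster 5 (median 232.5 UMIs). Library and cluster thus cannot be told apart in that ratio. CHST11 had no clear direction in this class. It was 113 CPM against 82.9 CPM in microglia-like nuclei, a log2 ratio of 0.40 (-0.48 to 1.52), with 24 of its 64 processed UMIs from the barcode described above. Without that barcode it was 72.3 CPM, a log2 ratio of -0.24 (-1.19 to 0.91). In oligodendrocyte-like nuclei CHST11 gave 0 UMIs in the processed and 17 in the unprocessed library. This is 2.61-fold lower with 0 read as 3 counts, and the interval of the log2 ratio reaches up to -0.93. The astrocyte-like nuclei of the processed library were only 2, with 3 CHST11 UMIs, a log2 ratio of -1.55 (-4.05 to -0.21). Among the 411 processed barcodes with under 100 genes, LHFPL3 gave 36 UMIs, or 1242 CPM of their 28995 UMIs, while PDGFRA and GPR17 gave 0.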

How the data were processed

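The authors deposited raw UMI counts per gene for each barcode as whole numbers, without normalization. DRAGEN is listed in the submitters' processing notes, without a version or role, and the design text mentions Seurat downstream. The DRAGEN version, the annotation, the genome build and the rule for calling barcodes are not given, so coordinates are left out. The matrices used here list 13765 features with 12652 distinct symbols, so CPM and depth refer to these genes, and markers outside them, such as CSPG4, PCDH15, MBP and MKI67, were not analysed here.

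Nuclei had at least 100 detected genes. Clustering ran on the 2 libraries jointly in Seurat 5.3.0 (R 4.3.3; Louvain at resolution 0.5 on 30 principal components of 2000 variable genes, scaled to 10000) without the 6 genes. A cluster was named for the list with the highest mean log2 ratio of its markers over the 25th percentile of the other clusters. At least 3 of them had to be raised 1.5-fold. The cluster stayed unnamed if its 10 leading genes held more markers of another class. It also stayed unnamed if they held none of the chosen list and its median depth was below the library median divided by 3. This scoring rule was written after the clusters were seen. Scrublet in scanpy 1.11.5 called 4 of 2125 and 0 of 494 nuclei, too few to have worked, and none was removed.

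Sums carry exact Poisson, shares exact Clopper-Pearson and ratios exact conditional binomial 95% intervals. Log2 ratios have 0.5 counts added to each sum. Ratios called at least 2-fold needed 20 UMIs over both sets. Correlations used log2(CPM + 10) and genes with at least 100 UMIs. The scripts were tested on simulated data. Named genes are the 6 members, up to 4 highest and 2 lowest measured genes of each list by ratio, and the 5 genes most similar to PDGFRA and to GPR17. In the GPR17 comparison the members and the measured committed-stage and myelin genes are given. A result of the precursor regulator list is not reported here. The members and lists were chosen with earlier results of these data known. Alternatives covered resolution, class assignment, doublets, depth, scaling and detection thresholds.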

Additional observations from a re-analysis of the deposited data

How the results depend on the processing

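No paired analysis was possible because each condition has 1 library. All 6 genes stayed at least 2-fold higher in precursor-like nuclei under every class alternative run. The log2 ratio ranged from 4.81 to 5.93 for PDGFRA, 3.24 to 4.53 for LHFPL3, 5.65 to 7.33 for GPR17, 1.42 to 2.95 for MEGF11, 4.75 to 7.13 for STK32A and 2.69 to 3.28 for CHST11. The lowest value of each came from classing nuclei by marker UMIs alone, which gave 235 precursors (11.1%). The mean of each nucleus's own CPM gave 5.54 for PDGFRA and 2.95 for MEGF11. Leaving out other nuclei with 2 or more PDGFRA UMIs gave 4.53 for LHFPL3 and 7.13 for STK32A. Between the libraries, microglia-like nuclei alone, whose cluster makeup differs, gave log2 ratios of -0.99 for PDGFRA, -0.66 for LHFPL3 and -0.13 for MEGF11. They gave 2.16 for STK32A (9 against 0 UMIs, -1.11 at the lower limit) and 0.40 for CHST11 (-0.48 to 1.52). Both changed sign, STK32A from -0.34 and CHST11 from -1.45 over all nuclei, with intervals that span 0. Without the 1 processed barcode as well, an alternative chosen after seeing the data, microglia-like nuclei gave -0.86 for LHFPL3 and -0.84 for MEGF11. STK32A was then 0.75 (3 against 0 UMIs) and CHST11 -0.24, with PDGFRA at 0 UMIs. Scaling by the median of gene ratios, a shift of -0.43, gave -0.86 for LHFPL3 and -1.88 for CHST11. Without the 1 processed barcode the added-count ratio was -6.38 for PDGFRA, -1.54 for STK32A and -1.91 for CHST11. Not thinned, GPR17 nuclei held PDGFRA in 82.9% and MEGF11 in 97.6%, and at 2 or more UMIs 81.2% held PDGFRA, against 75.0% of the others. The unprocessed minus processed share, not thinned, was 9.59 percentage points for PDGFRA, 27.5 for LHFPL3, 2.62 for GPR17, 27.6 for MEGF11, 3.51 for STK32A and 38.2 for CHST11. At 500 UMIs it was 3.42 for PDGFRA, 1.04 for GPR17, 7.26 for MEGF11 and 9.73 for CHST11. GPR17-positive nuclei at 2 or more UMIs, set against the other 92, gave -0.44 for LHFPL3, -0.23 for MEGF11, which reversed, and -0.61 for CHST11. Rank correlation shared 0 of 5 similar genes for PDGFRA and 0 of 5 for GPR17. The causes were not tested. Another 84 values moved by less than their counting interval. GPR17, with 89 UMIs in the unprocessed library and 1 in the processed one, is the gene most limited by depth.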

Other observations

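ST6GALNAC5, a sialyltransferase gene singled out after its values were seen, had 59 UMIs in GPR17-positive and 16 UMIs in GPR17-negative precursor-like nuclei, a log2 ratio of 2.33 (1.54 to 3.26). With GPR17-positive taken as at least 2 UMIs, against the other 92 nuclei, the log2 ratio was -0.02 (-1.10 to 0.83).

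Among the 5 genes most similar to LHFPL3 over the 13 clusters were APBB2, with 3668 CPM in precursor-like nuclei against 419 CPM elsewhere, ZNF462, with 2311 CPM against 283 CPM, and the transporter gene SLC22A3, with 647 CPM against 24.7 CPM. By rank correlation none of these 5 genes was among the 5 most similar to LHFPL3. For MEGF11 the most similar gene was SEMA5B, a semaphorin, at r = 0.871, with 721 CPM in precursor-like nuclei against 201 CPM elsewhere. SEMA5B was also among the 5 highest for MEGF11 by rank correlation, at rho = 0.835.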
